A study of Saccharomyces cerevisiae with 48 samples.

Results

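The ORFs described here are 10 protein-coding ORFs of the mitochondrial genome of budding yeast (Saccharomyces cerevisiae). They were chosen by their identifiers, which all begin with Q0: COX1 (Q0045), AI1 (Q0050), AI2 (Q0055), COX2 (Q0250), COX3 (Q0275), COB (Q0105), ATP6 (Q0085), ATP8 (Q0080), OLI1 (Q0130) and VAR1 (Q0140). All 10 were among the 6713 ORFs of a table of pooled mRNA levels, in which 28 ORFs had identifiers beginning with Q0. COX1, AI1, COX2 and COB were also among the 3301 genes with read counts, and were the only 4 such ORFs there. The other 6 members have pooled mRNA values only. The reference annotation places all 10 on the mitochondrial chromosome, as the label says.

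The study followed diploid cells of strain BY4743, a laboratory strain with no further genetic change named in the labels, through the cell cycle in the rich glucose medium YPD. Newborn, unbudded cells were separated from the culture by centrifugal elutriation, left to grow, and collected at 8 volumes, every 5 fl between 40 and 75 fl. At every size there were 3 pools of cells (replicates A, B and C), which the labels call independent. Each pool gave 1 poly(A) mRNA library and 1 footprint library, made of RNA shielded by ribosomes from nuclease digestion, 48 libraries in all. All groups share the strain, ploidy and medium, and differ in the labelled size.

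Yeast mitochondrial DNA encodes core subunits of the respiratory chain and of ATP synthase and a protein of the mitochondrial ribosome, and all other subunits of these complexes come from nuclear genes. The mitochondrial transcripts are made by a separate RNA polymerase, several are cut from longer precursors, and those of COX1 and COB are spliced, with introns that can themselves encode proteins. They are translated inside the organelle by mitochondrial ribosomes, with the help of nuclear-encoded activators that are each specific to certain transcripts. Mature mitochondrial mRNAs of budding yeast lack the long poly(A) tail of nuclear mRNAs. Poly(A) selection therefore captures these transcripts poorly, and their reads in the mRNA libraries may not stand in a fixed relation to their amount in the cell. All levels below are levels in poly(A)-selected RNA. Whether capture changed with size was not tested.

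On the R64 build, COX1 lies on the mitochondrial chromosome from 13818 to 26701 and spans 12884 bases, introns included. AI1 (13818 to 16322) and AI2 (13818 to 18830) start at the same base as COX1, as do AI3, AI4 and AI5_ALPHA, because each is an ORF that reads from the first exon into an intron. ATP8 (27666 to 27812), ATP6 (28487 to 29266), OLI1 (46723 to 46953) and VAR1 (48901 to 50097) are separate ORFs. COB (36540 to 43647) also contains introns, and its start is shared by the intron ORFs BI2, BI3 and BI4. COX2 runs from 73758 to 74513 and COX3 from 79213 to 80022. The labels and file headers do not say how reads of a shared stretch were divided, so the values of COX1, AI1, AI2 and COB are uncertain to that extent. The last bases of COX2 overlap Q0255, which starts at 74495.

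The mRNA libraries held 248840 to 5797532 counted reads. In them COX1 had 47 to 1065 reads, AI1 150 to 6485, COX2 11 to 982 and COB 19 to 1768. Together the 4 ORFs took 0.0454% to 0.347% of the counted mRNA reads, with a median of 0.0728%. The highest shares were those of 70 fl replicate C (0.347%, from 832733 reads), 65 fl replicate A (0.190%) and 70 fl replicate A (0.153%). Footprint libraries held 26360 to 5659096 counted reads, and the 4 ORFs took 0% to 0.170% of them, with a median of 0.0112%. Fewer than 150000 reads were counted in 6 of these 24 libraries.

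In the pooled mRNA table the mitochondrial ORFs were high at 65 and 70 fl and low at 45 and 50 fl. Values there are the authors' log2 ratios of the level at 1 size to the ORF's own mean over the 8 sizes, with the replicates merged, so they have no error and were not tested. All 10 members were above their mean at 65 fl and at 70 fl, against 49.2% and 64.2% of all 6383 ORFs with a value at every size. None of the 10 was above its mean at 45, 50 or 60 fl, where 26.5%, 36.8% and 35.6% of all ORFs were. The highest value fell at 65 or 70 fl for 9 members and for 33.6% of all ORFs. The exception was VAR1, which was highest at 55 fl. The replicates at the 2 high sizes were uneven in the counted mRNA reads. COX1, AI1, COX2 and COB together took 0.190% of them in 65 fl replicate A, against 0.0862% and 0.102% in B and C. At 70 fl they took 0.153% in A and 0.347% in C. Replicate B had 0.0782%, within the 0.0718% to 0.0879% of the 60 fl libraries.

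**Figure D1:**
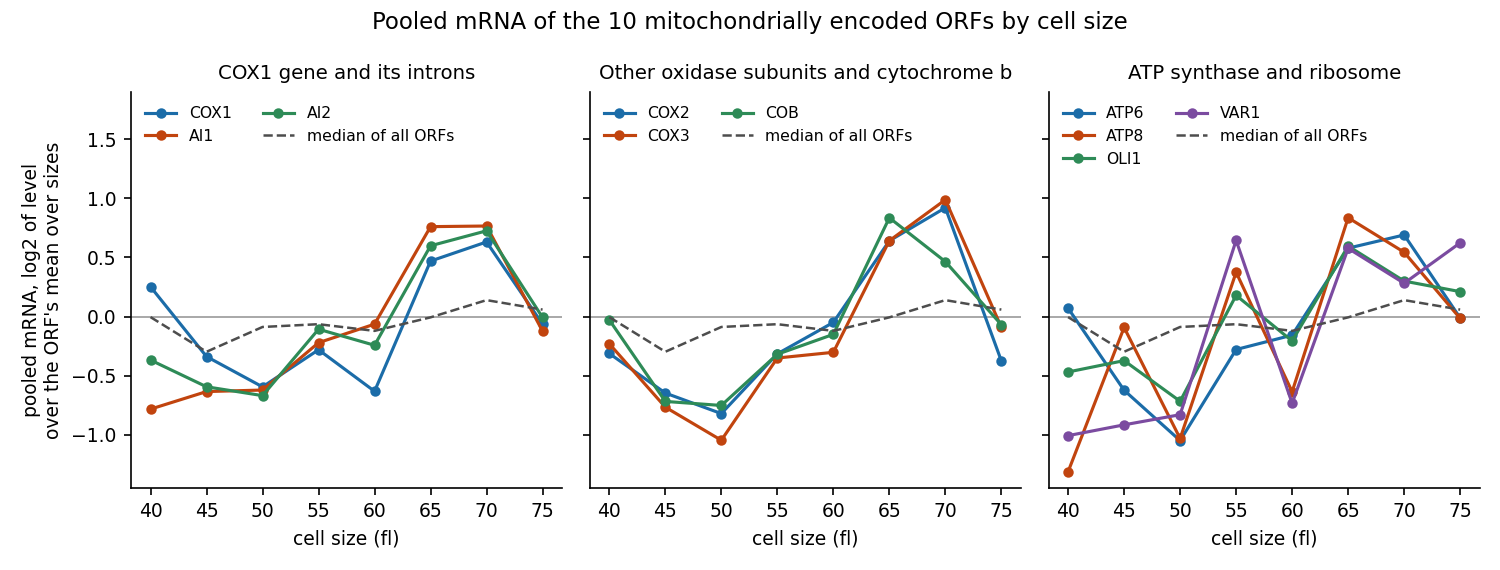
Pooled mRNA of the 10 members against cell size (fl), as log2 of the level over the ORF's mean over sizes; each coloured line is 1 ORF and the dashed line is the median of all ORFs. All 10 lines lie above 0 at 65 and 70 fl, where the medians of the members are 0.62 and 0.66.

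Of the 3 oxidase subunits, which form the catalytic core of cytochrome c oxidase, COX3 had the widest swing. In order of size from the smallest, COX3 had values of -0.23, -0.77, -1.05, -0.35, -0.30, 0.64, 0.99 and -0.09. COX2 followed nearly the same course, from -0.82 at 50 fl to 0.92 at 70 fl, and was the lowest member at 75 fl (-0.38). COX1 differed at the small end: it was above its mean in newborn cells (0.25 at 40 fl), lowest at 60 fl (-0.63) and highest at 70 fl (0.63). COB, the cytochrome b of the bc1 complex, was lowest at 50 fl (-0.75) and highest at 65 fl (0.84). Some of these extremes fell at other sizes when the same ratio was taken from the read counts. COX1 was then lowest at 50 fl (-0.80), and COB was lowest at 45 fl (-0.92) and highest at 70 fl (0.78).

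The intron ORFs AI1 and AI2, which encode proteins that act as reverse transcriptases and aid the splicing of their own introns, were both highest at 70 fl. In order of size from the smallest, AI2 had values of -0.37, -0.59, -0.67, -0.11, -0.24, 0.60, 0.73 and -0.01. AI1 was lowest at 40 fl (-0.78), the size at which COX1 was above its mean, and nearly equal at 65 and 70 fl (0.76 and 0.77). In the read counts the low of AI1 at 40 fl was seen in replicate A but not in B or C. The lowest size was 40 fl in A, 45 fl in B and 50 fl in C, and in B 40 fl was the highest. At 40 fl replicate A held 5294862 counted reads, B 248840 and C 515450. The same ratio, taken from the mean share of a library with each library weighted equally, was -0.19 at 40 fl and lowest at 45 fl (-0.87).

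ATP6, ATP8 and OLI1 encode membrane subunits of ATP synthase, of which the OLI1 product forms the rotating ring. In order of size from the smallest, ATP6 had values of 0.07, -0.62, -1.05, -0.28, -0.16, 0.58, 0.69 and -0.01. In order of size from the smallest, ATP8 had values of -1.31, -0.09, -1.03, 0.37, -0.64, 0.84, 0.54 and -0.02. The ATP8 line thus went up and down between neighbouring sizes, while that of ATP6 had a single trough and a single peak. In order of size from the smallest, OLI1 had values of -0.47, -0.37, -0.72, 0.18, -0.21, 0.60, 0.30 and 0.21.

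VAR1, the ribosomal protein of the small mitochondrial subunit, was closest in profile to OLI1 and ATP8 (Pearson correlations of 0.90 and 0.82 over the 8 sizes). In order of size from the smallest, VAR1 had values of -1.01, -0.92, -0.83, 0.64, -0.73, 0.58, 0.28 and 0.62. Its values at 55, 65 and 75 fl were close to each other, with a fall at 60 fl between them. ATP8 and OLI1 had the same alternation, high at 55 fl and lower at 60 fl. No read depth is given for the pooled values.

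Across the 8 sizes the profiles of the members had Pearson correlations of 0.45 to 0.98 over their 45 pairs, with a median of 0.82. The closest pair was AI2 and COX3, and the least alike were COX1 and VAR1. These points share their libraries and number 8 per pair, so they only describe the table. VAR1 had the lowest median correlation with the other members (0.61) and AI2 the highest (0.92). The other 12 ORFs with Q0 identifiers and a value at every size behaved much like the members at the large end: 10 of 12 were above their mean at 65 fl and 10 of 12 at 70 fl. An exception was Q0142, highest at 40 fl and lowest at 65 fl (-1.25). Several of these ORFs lie in the introns of COX1 and COB and are no independent evidence.

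Some nuclear ORFs had profiles as close to a member as other mitochondrial ORFs had. In the pooled table, the most similar ORFs outside the mitochondrial genome reached correlations over 8 sizes of 0.98 for COX2 (MNP1), 0.98 for COX3 (PAN3), 0.97 for ATP6 (PAN3) and 0.97 for AI2 (RPS25A). For OLI1 and ATP8 the closest was YPR146C (0.97 and 0.93), and for VAR1 it was SSY1 (0.94). Each is the best among all ORFs outside the mitochondrial genome with a value at every size. With 8 points per profile, it only describes the table.

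The read counts give each replicate, for 4 members, in the mRNA libraries. COX2 had the smallest adjusted p of the 4 in both mRNA tests. Levels are log2 CPM, reads scaled to a common library size by the TMM method, with a prior count of 2. They are shares of a library, so more cells with a transcript and more of it per cell cannot be told apart. At 50 fl COX2 had 5.43, 5.42 and 4.86 in replicates A, B and C, and at 70 fl 7.23, 6.02 and 6.92. All 3 libraries of 70 fl were above all 3 of 50 fl. Its means at these sizes were 5.24 ± 0.33 and 6.72 ± 0.63 (SD, n = 3), a 2.79-fold difference. COX2 differed across the 8 sizes (edgeR quasi-likelihood F-test, adjusted p = 0.0117) and rose by 0.17 log2 per 5 fl (SE 0.05, edgeR adjusted p = 0.00456). Both calls held when any single mRNA library was left out. The slope missed the threshold without replicate A (adjusted p = 0.0941), and the difference across sizes did so without replicate C (0.243) and without the 3 mRNA libraries under 1000000 reads (0.0668), and limma-voom gave 0.0555 across sizes.

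AI1 had the most reads of the 4 and also its highest mean at 70 fl. At 45 fl AI1 had 8.33, 8.41 and 8.84 log2 CPM in replicates A, B and C, and at 70 fl 9.74, 9.13 and 11.31. The groups did not overlap, but replicate C of 70 fl stood far above the other libraries of its size. The means were 8.53 ± 0.28 and 10.06 ± 1.12 (SD, n = 3). AI1 differed across sizes (edgeR adjusted p = 0.0403) and rose by 0.17 log2 per 5 fl (SE 0.06, edgeR adjusted p = 0.0226). Without replicate C of 70 fl the slope was 0.10 (edgeR adjusted p = 0.105) and the adjusted p across sizes was 0.233. The call across sizes was also lost without any 1 of 9 other libraries, namely replicate A of 45, 50 and 65 fl, B of 40, 45, 50, 55 and 60 fl and C of 60 fl.

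COB was likewise lowest at 45 fl, where replicates A, B and C had 6.32, 5.57 and 6.75 log2 CPM. It was highest at 70 fl, where they had 7.54, 6.61 and 8.64. The libraries of these sizes overlapped, and replicate B of 70 fl (6.61) was below replicate C of 45 fl (6.75). The means were 6.21 ± 0.60 and 7.60 ± 1.02 (SD, n = 3). COB rose by 0.14 log2 per 5 fl (SE 0.06), at an edgeR adjusted p of 0.0490, just inside the threshold of 0.05, and its adjusted p across sizes was 0.0762. The slope missed the threshold when any of 17 of the 24 mRNA libraries was left out, all but 40 fl C, 55 fl A, 60 fl B, 65 fl C, 70 fl B, 75 fl A and 75 fl B. Its adjusted p was highest, 0.144, without 70 fl replicate C. Without 40 fl replicate C the slope was 0.21.

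COX1 had its highest means at 70 and 40 fl. In 40 fl cells replicates A, B and C had 6.38, 7.67 and 7.66 log2 CPM, in 50 fl cells 5.70, 5.82 and 6.34, and in 70 fl cells 7.34, 6.31 and 8.32. Replicates B and C of 40 fl, 2 of the 3 mRNA libraries under 1000000 reads, were above every library of 45 and 50 fl, and replicate A was within their range. The third such library is replicate C of 70 fl (832733 reads), the highest of its size. The means were 7.23 ± 0.74 at 40 fl, 5.95 ± 0.34 at 50 fl and 7.33 ± 1.01 at 70 fl (SD, n = 3). COX1 passed neither test, with a slope of 0.06 log2 per 5 fl (SE 0.06, edgeR adjusted p = 0.415) and an adjusted p of 0.0635 across sizes.

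In all, 2 of the 4 counted members differed across sizes, where 25.9% of all 3301 genes did, and 3 of 4 rose along size, where 19.4% did. None fell, against 22.1% of all genes, and 41.6% of genes had a slope in either direction. With 4 members, of which 2 share their start, these counts say little beyond the single genes. The median slope of the members was 0.15 log2 per 5 fl and that of all genes -0.00. The highest and lowest sizes of AI1 and COX2 did not overlap, and the same held for 73.6% of all genes at their own highest and lowest sizes. Ordered by mean level, neighbouring sizes overlapped for all 4 members, except that every 65 fl library of AI1 was above every 60 fl library.

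**Figure D2:**
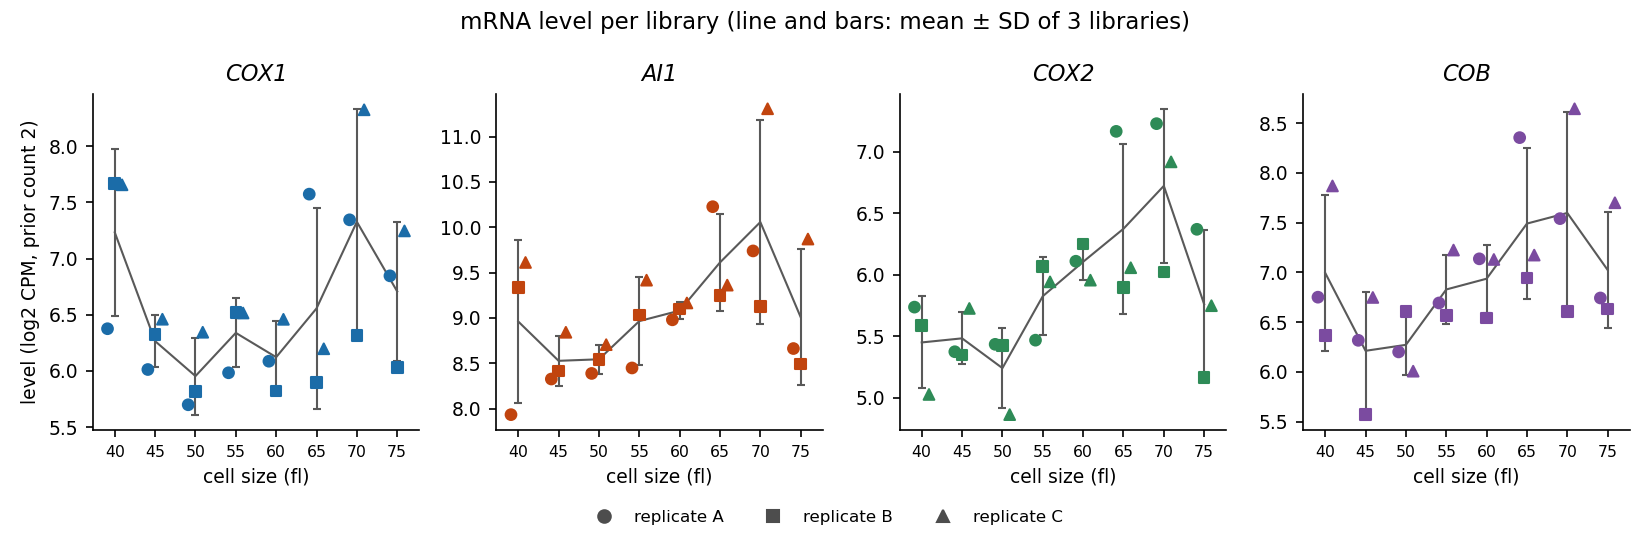
mRNA level (log2 CPM) of COX1, AI1, COX2 and COB against cell size (fl); points are libraries, with the shape giving the replicate, and the line with bars is the mean ± SD of 3 libraries. The mean of each ORF is highest at 70 fl, where replicate B is the lowest point in all 4 panels.

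The slopes differed between replicates and were larger in A and C than in B for all 4 ORFs. Fitted within replicate A, the slopes were 0.19 log2 per 5 fl for COX1, 0.22 for AI1, 0.23 for COX2 and 0.15 for COB, and within replicate C 0.07, 0.19, 0.17 and 0.14. Within replicate B they were -0.14, -0.00, 0.02 and 0.10. Without replicate A none of the 4 slopes passed the edgeR test, without B 2 passed, and without C 1. At 70 fl the 3 replicates of AI1 were 9.74, 9.13 and 11.31 log2 CPM, and at 65 fl they were 10.23, 9.25 and 9.36. Replicate A was the highest of the 65 fl libraries for all 4 ORFs, and at 70 fl replicate C was the highest for COX1, AI1 and COB. Over the 24 mRNA libraries the members' levels had correlations of 0.45 (COX1 and COX2) to 0.84 (AI1 and COB), which share libraries and depth and only describe them.

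Over the 24 libraries the nuclear gene most like COX1 was YOL075C (Pearson 0.78), that most like AI1 was DNF3 (0.75), that most like COX2 was SUB2 (0.81) and that most like COB was REV3 (0.80). The closest other member was AI1 for COX1 (0.78), COB for AI1 (0.84), AI1 for COX2 (0.63) and AI1 for COB (0.84). For AI1 and COB the closest member had the higher value, for COX2 the closest nuclear gene, and for COX1 both were at 0.78.

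The ratio of reads between 2 members of the same library does not depend on the scaling of libraries. In every replicate the ratio of AI1 to COX1 reads was lowest at 40 fl. It was 2.96, 3.19 and 3.89 in replicates A, B and C at 40 fl and 6.31, 10.3 and 9.04 at 65 fl, with no overlap. The mean ratio went from 3.35 ± 0.48 at 40 fl through 6.12 ± 0.82 at 50 fl to 8.55 ± 2.04 at 65 fl, and back to 5.09 ± 1.38 at 75 fl (SD, n = 3). In log2 the difference between 65 and 40 fl was 1.33, or 2.52-fold. Across the 8 sizes it passed a permutation test with an F statistic over the 24 libraries (100000 resamples, adjusted p = 0.00390 over 5 ratios). This test was added after the ratios had been seen. Without replicate B the adjusted p was 0.187 and without replicate C 0.0569, with 65 fl still 2.23-fold and 2.62-fold above 40 fl.

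COB and COX2 relative to COX1 had means that changed in the same direction between these sizes. COB to COX1 was 0.954 ± 0.481 in 40 fl cells and 1.92 ± 0.18 in 65 fl cells (SD, n = 3). COX2 to COX1 was 0.344 ± 0.258 in 40 fl cells and 1.02 ± 0.32 in 60 fl cells (SD, n = 3). The 40 fl value came from 0.639 in replicate A and from 0.234 and 0.159 in the shallow replicates B and C, with 11 and 17 COX2 reads. Without the 3 mRNA libraries under 1000000 reads the difference between 65 and 40 fl went from 3.06-fold to 1.38-fold for COX2 to COX1, whose lowest size was then 75 fl, and from 2.26-fold to 1.48-fold for COB to COX1, whose lowest size was then 45 fl. For AI1 to COX1 it was 2.83-fold without them, with 40 fl still the lowest size (adjusted p = 0.0404). Neither COB nor COX2 to COX1 passed the permutation test (adjusted p of 0.184 and 0.108). With sizes permuted within a replicate letter, as a replicate block, COX2 to COX1 passed (adjusted p = 0.00830). Whether the letters pair the mRNA libraries was not settled. Without that block, the ratios of AI1 to COB and of COB to COX2 did not pass the permutation test either (adjusted p of 0.874 for both). AI1 and COX1 share their start, so a part of what is counted for one could be counted for the other, and the ratio is one of assigned reads.

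**Figure D3:**
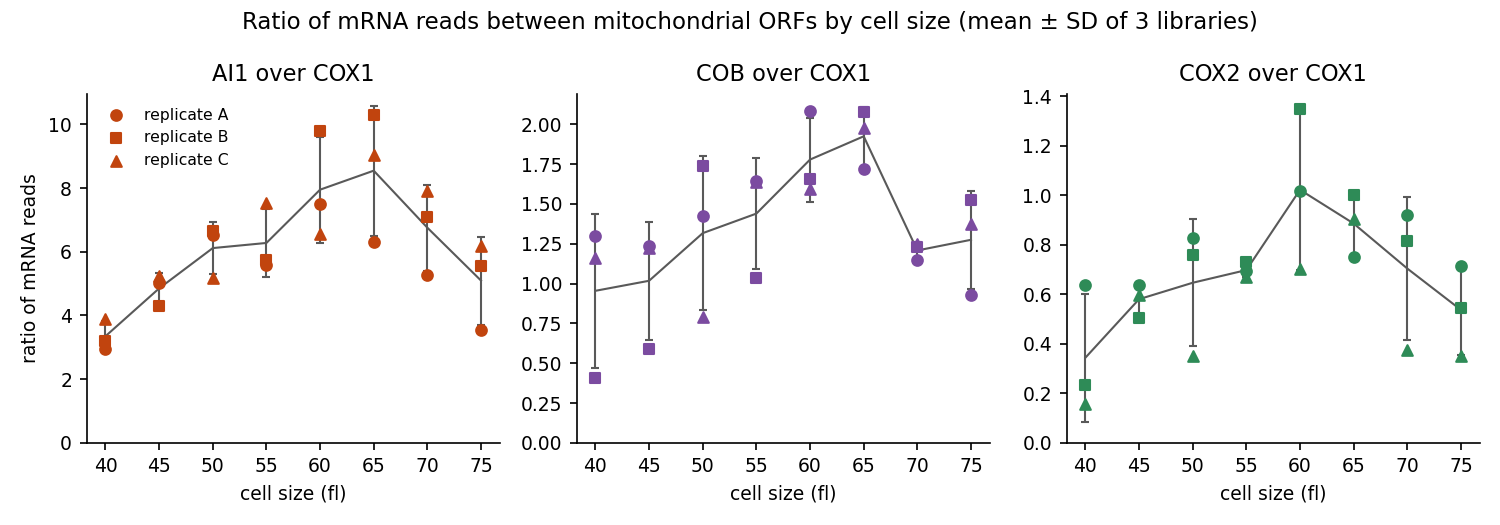
Ratio of mRNA reads of AI1, COB and COX2 to those of COX1 against cell size (fl); points are libraries and the line with bars is the mean ± SD of 3 libraries. For AI1 the 3 libraries of 40 fl lie between 2.96 and 3.89 and those of 65 fl between 6.31 and 10.3.

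A level per length could be given for 2 of the 10 members, AI1 and COX2. AI1 had a mean of 255 CPM per kb of its span over the 24 mRNA libraries, above 74.6% of the 3260 genes with a length, and COX2 had 85.1, above 44.8%. The 7 counted nuclear subunits of the same oxidase had means of 605 (COX8) to 2920 (COX12) CPM per kb. COX2 was thus several times below its nuclear partners on this scale. COX1 and COB are left out here because their spans include introns.

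Footprints on the members were few. COX1 had fewer than 10 reads in 8 of 24 footprint libraries, AI1 in 4, COX2 in 16 and COB in 14. In 65 fl replicate C (26360 reads) all 4 were at 0, which allows up to 114 CPM per ORF. The footprint extracts were cleared by centrifugation and digested with RNase I, per the labels' protocols. Intervals and limits given for single libraries cover counting error only.

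AI1 was the one member with footprint reads in nearly every library, and it was high in the smallest cells. It had 177, 277 and 281 CPM before scaling in replicates A, B and C at 40 fl, from 223, 264 and 956 reads. Scaled, these were 7.72, 7.88 and 7.72 log2 CPM, against 4.96, 5.23 and 4.38 at 55 fl. The means were 7.77 ± 0.09 and 4.86 ± 0.44 (SD, n = 3). These sizes did not have the highest and lowest means, which were 8.03 ± 2.66 at 50 fl and 3.93 ± 2.99 at 65 fl. The libraries of 50 and 65 fl overlapped. At 50 fl the replicates stood far apart, with unscaled values of 29.8 CPM in A, 424 in B (17 reads, exact 95% binomial interval 247 to 678) and 1700 in C (92 reads, interval 1371 to 2085), and B and C are shallow libraries. AI1 differed across sizes (edgeR adjusted p = 0.0392), as did 11 of 3301 genes (0.333%).

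That footprint call rested on few libraries. It was lost when any of 15 of the 24 footprint libraries was left out, all but 40 fl A, 45 fl A and C, 50 fl A, 60 fl B, 65 fl B and the 3 of 70 fl, with the highest adjusted p, 0.473, without 50 fl replicate C. Without the 6 libraries under 150000 reads the edgeR adjusted p was 0.377. It was 0.632 without 60 fl replicates A and C and 70 fl replicate A, in which a single nuclear gene, FAR11, held 9.65%, 25.1% and 16.3% of the counted reads. The other 3 counted members did not pass the test across sizes (edgeR adjusted p of 1.00 each).

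**Figure D4:**
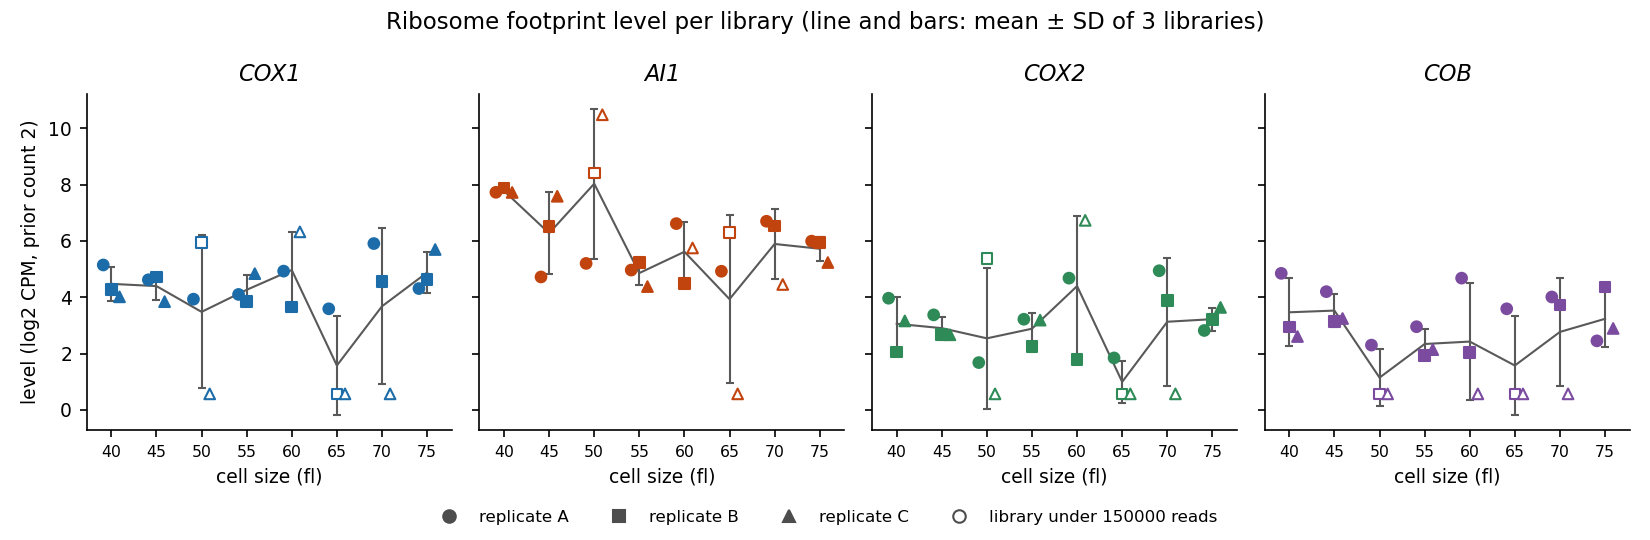
Footprint level (log2 CPM) of COX1, AI1, COX2 and COB against cell size (fl); points are libraries, open where the library held fewer than 150000 reads, and the line with bars is the mean ± SD of 3 libraries. Points at 0.57 are libraries with no read of the ORF; the 3 AI1 libraries of 40 fl lie together at 7.72 to 7.88.

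Along size no footprint slope passed the edgeR test, among the members or among all 3301 genes (0 called, 0%; 188 had an unadjusted p under 0.05; DESeq2 and limma-voom also called 0). For the whole table this result depended on replicate A. Without it edgeR called 795 of the 3301 footprint slopes, 297 rising and 498 falling, but 0 members. Without replicate B or without replicate C it called 0. With all libraries, the slopes were -0.37 log2 per 5 fl for AI1 (SE 0.13, edgeR adjusted p = 0.729), 0.07 for COX1 (SE 0.07), 0.08 for COX2 (SE 0.10) and -0.01 for COB (SE 0.08).

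The fitted slopes of AI1 had opposite signs in the 2 assays, 0.17 in mRNA and -0.37 in footprints. Within replicates A, B and C the footprint slope was -0.02, -0.25 and -0.73, so replicate A had almost none. Without 50 fl replicate C, the library with the highest AI1 footprint level, the fitted slope was -0.25. The test of this difference, in 1 model of the 48 libraries, gave -0.52 log2 per 5 fl (SE 0.14, unadjusted p 0.000742) and an edgeR adjusted p of 0.144, which missed the threshold. In that test edgeR called 0 of 3301 genes (0%), with 416 at an unadjusted p under 0.05, limma-voom called 0 and DESeq2 127. DESeq2 called AI1 (adjusted p = 0.0110). So did edgeR without the 6 shallow footprint libraries (slope -0.40, adjusted p = 0.0394, with 54 genes called). These fits had no term for the pool, although the 2 assays of a pool share their cells. With the pool as replicate block the AI1 difference was smaller and missed the threshold. Without that block, the differences in slope for COX1, COX2 and COB were 0.02 (SE 0.09), -0.10 (SE 0.10) and -0.15 (SE 0.10), with edgeR adjusted p of 0.969, 0.741 and 0.585.

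In level, footprints lay below mRNA for all 4 members, and further below than for the median gene. The differences averaged over sizes were -2.30 log2 for COX1 (SE 0.23), -2.78 for AI1 (SE 0.27), -3.13 for COX2 (SE 0.27) and -4.15 for COB (SE 0.27). The median of the members was -2.95 and that of all genes -1.23. The medians of the nuclear lists described below ran from -0.68 (ATP synthase) to -2.33 (translational activators). COX1 was within that range, and AI1, COX2 and COB were below it. The bc1 complex had a median of -2.18 and the mitochondrial ribosomal proteins -2.05. Only ATP synthase and DNA maintenance (-1.18) had medians above that of all genes. A low footprint level was thus not particular to the mitochondrial ORFs. The test against 0 called all 4 lower, and also 68.3% of all genes (20.7% were called higher and 88.9% in either direction), so it sets no member apart. On simulated counts that test called too many genes, so its p-values are not given. Without 65 fl replicate A, the only footprint library of that size with reads of COX1, COX2 or COB, the differences were -3.24, -3.78 and -5.08. The 65 fl part of these averages then rested on 0 reads, in libraries of 49488 and 26360 reads, and is no measured level. All values rest on poly(A) RNA in the denominator.

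The nuclear genes that serve the same complexes are read against the shares of all 3301 genes, of which 19.4% rose, 22.1% fell and 25.9% differed across sizes. The mRNA of the nuclear subunits of the bc1 complex rose for 3 of 7 counted genes (42.9%) and fell for none. It differed across sizes for 2 (28.6%). COR1, a core subunit, rose by 0.24 log2 per 5 fl (edgeR adjusted p = 7.32e-05), with 6.29 ± 0.26 log2 CPM in 40 fl cells and 8.09 ± 0.46 in 70 fl cells (SD, n = 3). CYT1, which encodes cytochrome c1, rose by 0.14 log2 per 5 fl (edgeR adjusted p = 0.0143). Of 7 counted nuclear subunits of cytochrome c oxidase none passed either edgeR test. Of the counted mitochondrial subunits, COX2 rose and COX1 passed neither test. Of 12 nuclear ATP synthase genes none fell and 1 differed across sizes (8.33%, below the share of all genes). Along size 4 rose (33.3%), among them ATP17 (slope 0.13, edgeR adjusted p = 0.00578) and ATP2, the beta subunit (slope 0.15, edgeR adjusted p = 0.00472).

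Among the translational activators 6 of 14 counted genes rose (42.9%, against 19.4% of all genes), none fell and 2 differed across sizes (14.3%, below the 25.9% of all genes). PET111, the activator of COX2 translation, rose by 0.11 log2 per 5 fl (SE 0.03, edgeR adjusted p = 0.00988). Its mean was highest at 70 fl (6.04 ± 0.17), but it missed the threshold across sizes (edgeR adjusted p = 0.0615). PET494, which acts on COX3, and CBS2, which acts on COB, differed across sizes and were highest at 40 fl (6.00 ± 0.25 and 6.57 ± 0.34, SD, n = 3; edgeR adjusted p of 0.0200 and 0.0237).

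Of 10 counted genes for mitochondrial RNA synthesis, splicing and turnover, 5 differed across sizes, 3 rose and 2 fell. These are 50%, 30% and 20%, against 25.9%, 19.4% and 22.1% of all genes. MSS18, which is needed to splice a COX1 intron, fell by 0.18 log2 per 5 fl, with means of 7.81 ± 0.33 in 40 fl cells and 6.47 ± 0.54 in 75 fl cells (SD, n = 3; edgeR adjusted p = 1.42e-05). MNE1, also a COX1 splicing factor, rose by 0.12 (edgeR adjusted p = 0.00888), from 4.80 ± 0.26 at 45 fl to 5.89 ± 0.22 at 65 fl. RPM2, the protein subunit of mitochondrial RNase P, rose by 0.16 (edgeR adjusted p = 0.0117). The 2 splicing factors of COX1 thus had opposite slopes.

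Of 8 counted genes for mitochondrial DNA maintenance 4 rose (50%, against 19.4% of all genes) and none fell. Only PIF1 differed across sizes (12.5%, below the 25.9% of all genes). The DNA helicase genes PIF1 and HMI1 rose by 0.09 and 0.23 log2 per 5 fl (edgeR adjusted p of 0.0216 and 0.000671). Of 6 counted genes for insertion and assembly 1 rose: COX17, a copper chaperone of the oxidase (slope 0.22, edgeR adjusted p = 0.000355). None of the 6 differed across sizes. Of 52 counted nuclear genes for mitochondrial ribosomal proteins 13 rose, 3 fell and 5 differed across sizes. The share that rose, 25%, was near the 19.4% of all genes, and the shares that fell (5.77%) and differed (9.62%) were below the 22.1% and 25.9% of all genes. MRPL39 fell by 0.13 log2 per 5 fl (edgeR adjusted p = 0.00181). The median slopes of the 8 lists ran from -0.00 (oxidase subunits) to 0.10 (ATP synthase), against -0.00 for all genes and 0.15 for the 4 mitochondrial members.

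**Figure D5:**
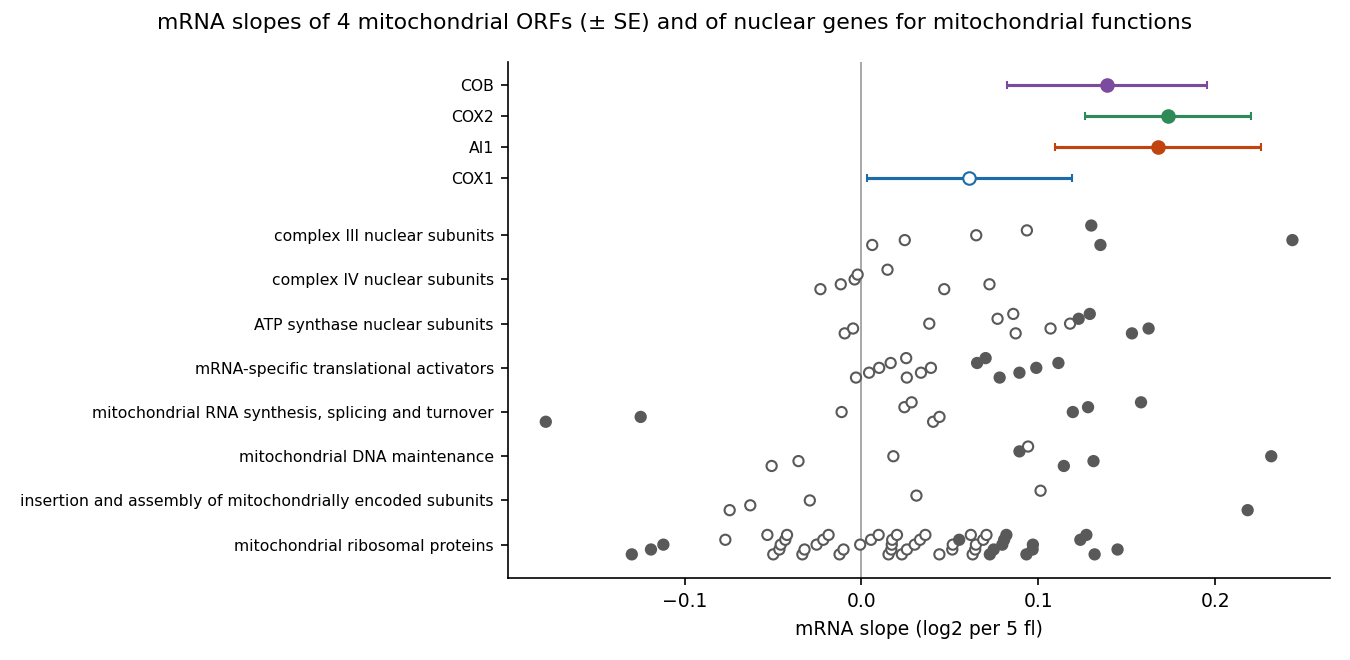
mRNA slope (log2 per 5 fl) of the 4 counted mitochondrial ORFs, with SE bars, and of each counted nuclear gene of 8 lists; filled symbols have an edgeR adjusted p under 0.05. COX2, AI1 and COB are filled at 0.17, 0.17 and 0.14, and COX1 and all 7 nuclear oxidase subunits are open.

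In the pooled table the nuclear lists were also highest at 65 or 70 fl, but with smaller swings. At 70 fl the list medians were 0.42 for the bc1 complex, 0.22 for the oxidase and 0.37 for ATP synthase, against 0.66 for the mitochondrial members and 0.14 for all ORFs. At 50 fl the same medians were 0.23, 0.16 and 0.06, all above 0, while the median of the mitochondrial members was -0.79. At 50 fl the mitochondrial members and the nuclear subunits thus lay on opposite sides of their means. These are medians without error and the difference was not tested.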

How the data were processed

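Poly(A) RNA and ribosome-protected fragments gave 24 libraries each, grouped by assay and labelled size. The authors deposited whole-number read counts for 3301 genes, without normalization, kept where a gene had at least 10 reads in every mRNA library. Which count table holds which assay was told by comparing both with a log2 table per library that the authors deposited with an assay in its header. A log2 table deposited by the authors holds pooled mRNA per ORF over its mean of the 8 sizes. Per the submitters' processing notes, the tools included RSEM 1.2.20, TopHat2 2.1.0, SAMtools 1.3-1, Bowtie 1.1.2 and cutadapt 1.8, on build R64; their roles are not stated there.

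Counts were fitted over all 3301 genes with edgeR 4.0.16 (R 4.3.3) by robust quasi-likelihood, with TMM factors within each assay and no replicate block; the low-count filter kept every gene. Tests were an F-test over 8 sizes, a slope per 5 fl, and footprints against mRNA in 1 model of 48 libraries, with a Benjamini-Hochberg adjusted p under 0.05. Read ratios were compared by permuting size labels (100000 resamples). Levels are log2 CPM with a prior count of 2. Alternatives used DESeq2 1.42.0, limma-voom (limma 3.58.1), other scalings and left-out libraries. The tests were tried on simulated data; that of footprint against mRNA level called too many genes. Replicate letters were not used to pair libraries within an assay, because the labels call the pools independent. Deviations of same-letter mRNA libraries had correlations of -0.52 to 0.75, with a mean of 0.054, above 0.1 in 39 of 84 pairs. A low mean does not exclude an effect of the letter. The 2 assays of a pool share their cells, with a mean correlation of 0.114 that was above 0.1 in 13 of 24 pools.

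The members and the 8 nuclear lists were chosen with earlier results of these data known. Named genes were all members, the 3 genes per list with the smallest p across sizes and the closest profiles; not all are printed. The p-values measure the spread between pools. Figures used matplotlib 3.10.9. No sequences are printed, as none were used here.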

Additional observations from a re-analysis of the deposited data

How the results depend on the processing

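Of the 4 counted members, 2 differed in mRNA across sizes; the count was 4 with library totals only and with DESeq2, and 0 with limma-voom and without the mRNA libraries under 1000000 reads, a setting chosen after seeing the data. It ran from 0 to 4 when a replicate letter or a library was left out. The 3 rising mRNA slopes ranged from 0 to 3 on leaving out a letter or a library, with the sign kept in each case. With the replicate block 3 members differed across sizes and 3 slopes were called. The call of AI1 footprints across sizes (1 member) became 0 with limma-voom, with the replicate block, without footprint libraries under 150000 reads and, added later, without those dominated by FAR11. Leaving out a letter or a library gave 0 to 1. The whole table moved too: 621 genes were called in footprints across sizes without replicate A, against 11 with all libraries and 0 without replicate C. Footprint slopes along size were called for 795 genes without replicate A, against 0 with all libraries, and for 0 members in both cases.

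Footprint slope against mRNA slope called 0 members, but 1 (AI1) with DESeq2 and without footprint libraries under 150000 reads; with the pool as replicate block the AI1 value was -0.36 (edgeR adjusted p = 0.387). Uncalled slopes changed sign. For COB footprints the slope was 0.0400 with limma-voom and 0.00221 with the replicate block, and -0.16 to 0.12 with left-out replicates. For COX1 footprints it was -0.0225 to 0.112. The COX1 difference from mRNA was -0.0331 with library totals only, -0.00972 with limma-voom, -0.0110 without the FAR11 libraries and -0.0378 without the shallow mRNA libraries, and -0.0709 to 0.107 with left-out replicates. For COX2 it was -0.190 to 0.000197 and for COB -0.319 to 0.00328. The ratio of AI1 to COX1 reads had an adjusted p of 0.0193 to 0.187 on leaving out a replicate letter, and 0.0033 with the replicate block. The cause was not tested in any of these. Scaling by library totals moved the median of all genes by up to -0.29 log2 (footprints, 60 fl). Read depth limits COX1, COX2 and COB in footprints.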
